A study of Ovis aries with 3 samples.

Results

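The genes described here are the sheep WNT ligands with the receptors, secreted agonists, secreted inhibitors and feedback genes of the same pathway. Members were chosen by symbol: every gene of the deposited tables whose symbol is WNT, FZD, SFRP, DKK or RSPO followed by a number, with *LRP5*, *LRP6*, *AXIN2*, *LEF1*, *TCF7*, *SP5* and *FRZB* added. The rule found 47 of 26478 genes. They comprised 19 WNT ligands, 10 frizzled (FZD) receptors, the 2 co-receptors *LRP5* and *LRP6*, 4 R-spondins (RSPO), 5 genes of the SFRP and *FRZB* group, 3 DKK genes, and the 4 genes *AXIN2*, *LEF1*, *TCF7* and *SP5*. The rule itself uses symbols alone.

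Whole embryos were profiled by droplet-based single-cell RNA sequencing from the 3′ end of transcripts in 3 libraries. E19 HSTS came from 1 embryo at embryonic day 19 of the Hulunbuir short-tailed sheep, a breed whose genotyped animals in the study were homozygous for a substitution in the coding sequence of *T*, the brachyury gene. E19 HS came from 1 embryo of the same day of the Hu sheep, homozygous for the wild-type allele, and E16 HS came from Hu sheep at embryonic day 16. The label of E16 HS names 1 embryo and the design text names 3, and whether cells of several embryos were pooled could not be settled. Breed and allele therefore differ together in E19 HSTS, and within each comparison the group and the library cannot be told apart.

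WNT proteins are secreted, lipid-modified ligands that bind a frizzled receptor. In the canonical branch, LRP5 or LRP6 joins the complex, beta-catenin accumulates, and TCF/LEF transcription factors switch on targets, among them *AXIN2* and *SP5*, which feed back on the pathway. R-spondins raise the number of receptors at the cell surface, secreted frizzled-related proteins bind the ligands, and DKK1 blocks the LRP co-receptors. In the vertebrate embryo the pathway maintains the progenitors of the tail bud, drives the segmentation of the presomitic mesoderm and patterns the dorsal neural tube. WNT5A and WNT5B act mainly through the branch that does not use beta-catenin, which orients cells and their movements during axis extension.

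Where 3 values stand in a row below, E19 HSTS comes first, E19 HS next and E16 HS last. After filtering, 9618, 10629 and 11329 cells remained, with 99580051, 88733467 and 113213654 unique molecular identifiers (UMIs, counted transcript molecules). The median cell held 8675, 6900 and 9046 UMIs. Pairs of libraries shared 31 to 37 cell barcodes, which is at most 0.348% of the smaller library. The *T* transcript reached 0.0603, 0.563 and 1.98 UMIs per 1000000 UMIs (CPM), and since the allele is a substitution this level is no check of the genotype. With 1 library per group no difference below has a replicate check and no test was run. Each value is given with its exact 95% interval, which covers counting error only and not variation between embryos. Values of different genes are not compared with each other, because the files give counts from transcript ends.

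The 19 ligands together reached 13.8, 18.2 and 32.9 CPM. The 4 R-spondins reached 24.6, 30.6 and 84.1 CPM, and the 10 frizzled receptors reached 62.0, 72.8 and 89.7 CPM. As sums, both groups of secreted inhibitors were lowest in E16 HS. Single genes differed: *SFRP1* and *SFRP2* were lowest there, while *FRZB* (4.02, 4.96 and 7.14 CPM), *SFRP4* and *SFRP5* were highest there. The SFRP and *FRZB* group summed to 90.2, 106 and 72 CPM, and the DKK genes to 1.78, 2.75 and 1.28 CPM. The 2 co-receptors summed to 36.0, 37.1 and 49.7 CPM, and *AXIN2*, *LEF1*, *TCF7* and *SP5* together to 9.10, 8.66 and 13.7 CPM. At least 1 WNT UMI was found in 9.91%, 10.7% and 18.4% of cells, and at least 1 R-spondin UMI in 13.4%, 14.4% and 26.2%. Shares of cells with a UMI, here and below, also depend on the UMIs per cell, which differed between the libraries. Of the 47 members, 27 had at least 100 UMIs over the libraries together and 20 had fewer.

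**Figure D1:**
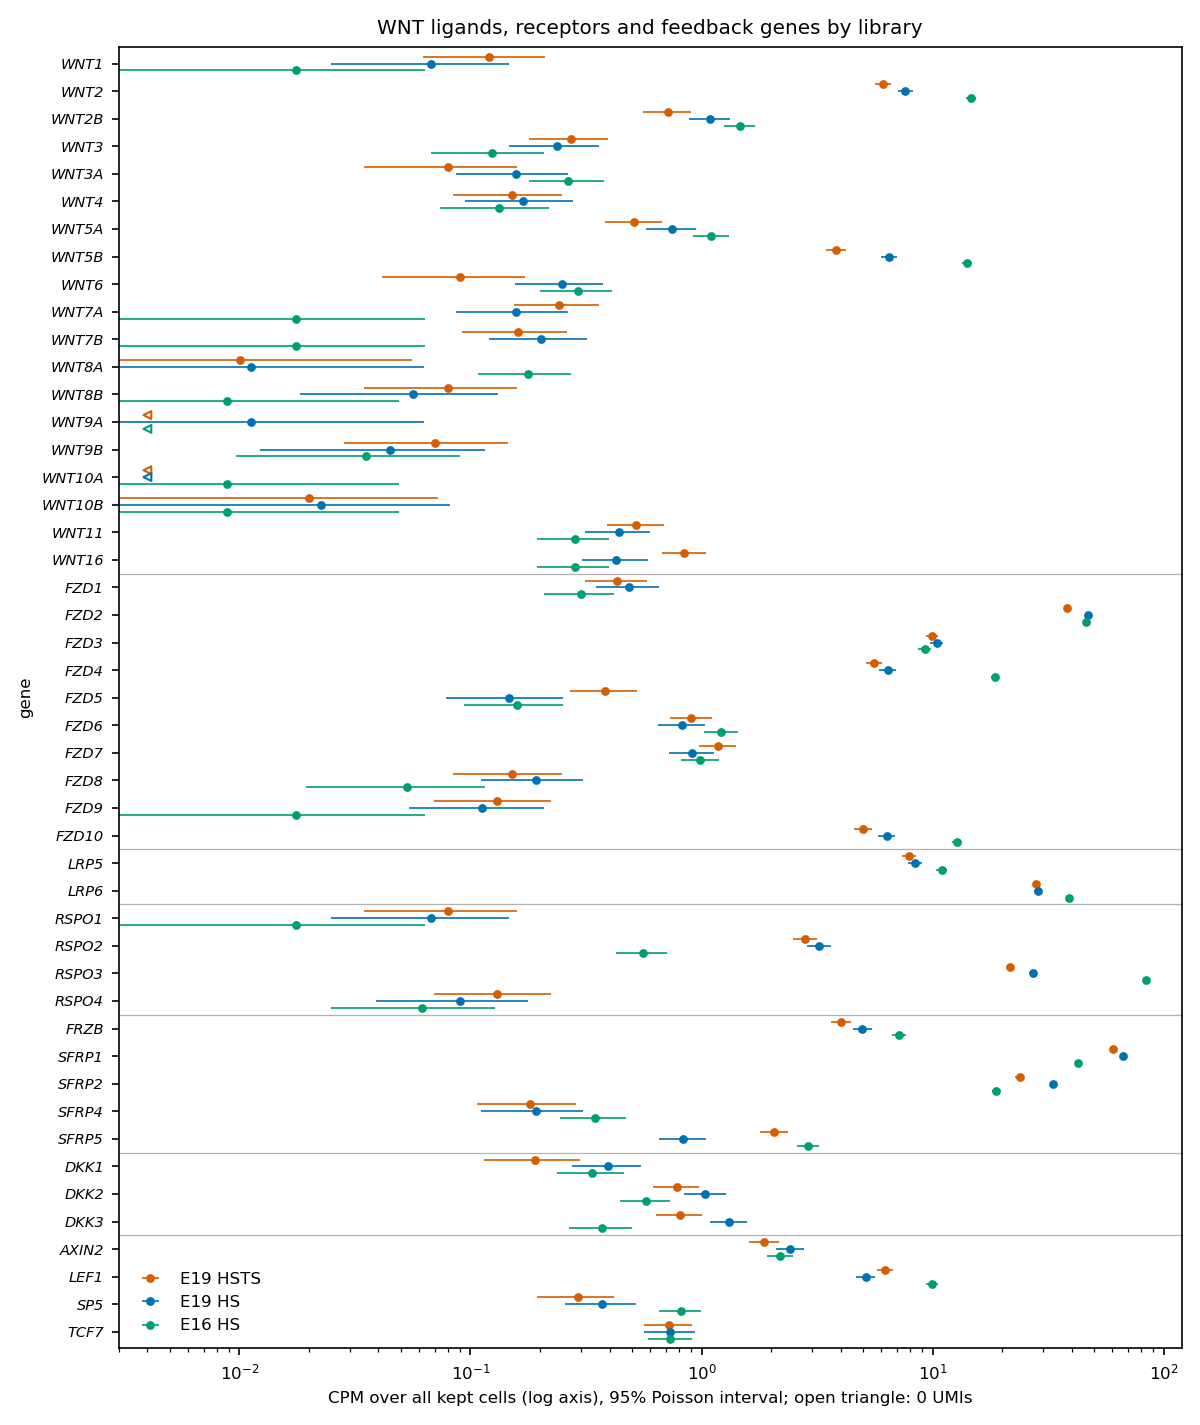
Level of each member in CPM on a log axis (horizontal), 1 row per gene grouped by family, with 1 point per library and bars for the exact 95% counting interval. Open triangles mark members with 0 UMIs in a library, such as *WNT10A* in both E19 libraries. The ligand *WNT5B* and the agonist *RSPO3* were highest in E16 HS at 14.1 and 83.5 CPM, while *RSPO2* was lowest there at 0.556 CPM.

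In E19 HSTS against E19 HS, which sets the short-tailed embryo beside the wild-type embryo of its age, most members lay within 2-fold. Of 29 members with at least 50 UMIs over the pair, *FZD5* and *SFRP5* were at least 2-fold higher in E19 HSTS (2 of 29, 6.90%), where 1.53% of all 12439 genes tested were. *DKK1* was at least 2-fold lower (1 of 29, 3.45%), where 2.28% of all genes were. The median log2 ratio was −0.20 over the 29 members and −0.05 over all genes. Within 2 cell classes described below, the median of the members tested was positive, but in neural tube-like cells it was still below that of all genes. Their median was 0.09 in neural tube-like cells (all genes 0.22) and 0.26 in somitic-like cells (all genes 0.25). Erythroid-like cells, of the red blood lineage, were 25.3% of E19 HSTS cells and 12.3% of E19 HS cells. The part of this share in the library median was not tested. In sums over a library, more cells of a type and more RNA per cell cannot be told apart.

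*SFRP5*, a secreted inhibitor known from the foregut, had 205, 74 and 327 UMIs, or 2.06, 0.834 and 2.89 CPM. The HSTS to HS ratio at E19 was 2.47 (1.88–3.27). Many of its UMIs lay in blood cells of the red lineage: erythroid-like cells held 57.1%, 39.2% and 75.2% of them. These cells were 25.3%, 12.3% and 16.4% of all cells. Their median cell held 17276, 17283 and 13656 UMIs, so their share of all UMIs was above their share of cells. *FZD5*, a frizzled receptor, had 38, 13 and 18 UMIs, with a ratio of 2.60 (1.36–5.33), and 24, 5 and 8 of these UMIs were in erythroid-like cells. Without erythroid-like cells the ratio was 2.20 for *SFRP5* and 1.97 for *FZD5*. The share of erythroid-like cells differed between the libraries (2431 of 9618, 1306 of 10629 and 1863 of 11329 cells), embryos had gone through red blood cell lysis, and the part of this share in either value was not tested beyond that alternative.

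*DKK1*, an inhibitor that binds the LRP co-receptors and is itself a target of the pathway, had 19, 35 and 38 UMIs. The HSTS to HS ratio at E19 was 0.484 (0.261–0.869), and it was 0.611 without erythroid-like cells. *WNT5B* had 380, 575 and 1596 UMIs, or 3.82 (3.44–4.22), 6.48 (5.96–7.03) and 14.1 (13.4–14.8) CPM. The E19 HSTS embryo was lowest, with a ratio of 0.589 (0.516–0.672) to E19 HS, not past 2-fold. With the same weight for each cell class in both libraries the ratio was 0.781. *WNT5A*, its close relative, had 51, 66 and 125 UMIs, and its ratio of 0.689 (0.468–1.01) held 1. *WNT16* went the other way, with 84, 38 and 32 UMIs and a ratio of 1.97 (1.33–2.97). *LEF1*, a TCF/LEF transcription factor, had 619, 455 and 1124 UMIs and a ratio of 1.21 (1.07–1.37).

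**Figure D2:**
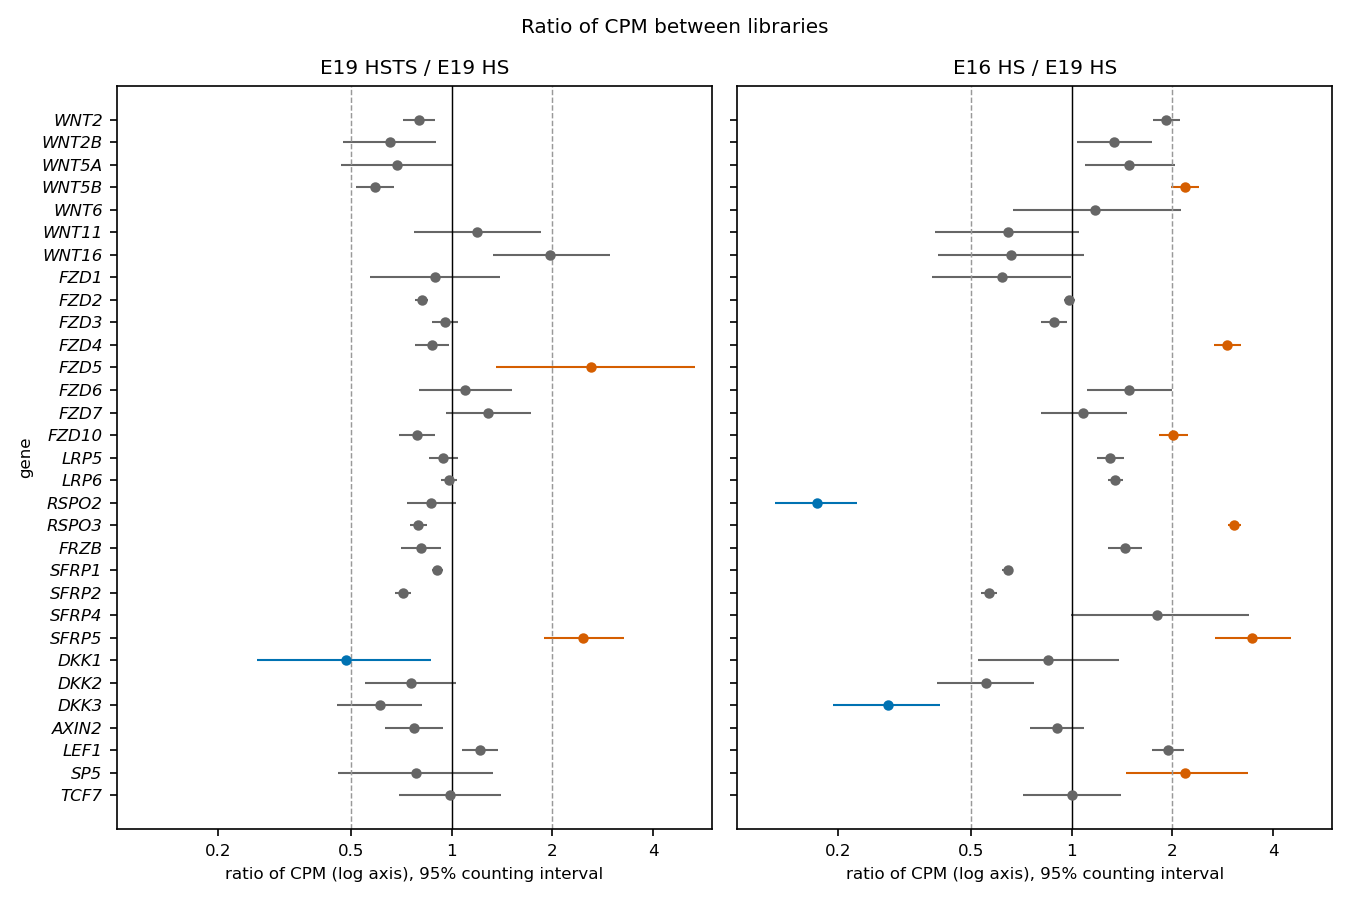
Ratio of CPM on a log axis for each member with at least 50 UMIs over the pair, in E19 HSTS against E19 HS (left) and E16 HS against E19 HS (right), with exact 95% intervals. Orange marks members at least 2-fold higher, blue those at least 2-fold lower and grey the others. *RSPO2* and *DKK3* lie farthest to the left at E16 with ratios of 0.173 and 0.281.

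In E16 HS against E19 HS, which sets the earlier day beside the later one in the same breed, more members differed. Both comparisons share the E19 HS library. Of 30 members with at least 50 UMIs, 6 were at least 2-fold higher at E16 (20%), where 6.96% of all 12580 genes tested were. These were *RSPO3*, *WNT5B*, *FZD4*, *FZD10*, *SFRP5* and *SP5*. *RSPO2* and *DKK3* were at least 2-fold lower (6.67%), where 6.38% of all genes were. The median log2 ratio was 0.31 over the members and 0.23 over all genes.

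*RSPO3*, the most counted of the R-spondins, had 2154, 2417 and 9449 UMIs, or 21.6, 27.2 and 83.5 CPM. The ratio of E16 HS to E19 HS was 3.06 (2.93–3.21), and UMIs of *RSPO3* were found in 26.0% of E16 cells against 13% in E19 HS. With the same weight for each cell class in both libraries it was 0.936, so the direction turned. Without clusters 12 and 24, described with the classes below, the ratio was 1.78, no longer past 2-fold. *RSPO2*, a second agonist of the same family, was lower at E16: 279, 286 and 63 UMIs were 2.80, 3.22 and 0.556 CPM, a level 5.79 times lower (4.40–7.74) than in E19 HS. The library levels of these R-spondins thus differed in opposite directions between the days, and for *RSPO2* also with the same class weights (0.203).

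The ratio of E16 HS to E19 HS was 2.18 (1.98–2.40) for *WNT5B* and 1.48 (1.09–2.03) for *WNT5A*. For *WNT5B* it was 1.08 with the same class weights, and a *WNT5B* UMI was found in 8.32% of E16 cells against 4.55% in E19 HS. Erythroid-like cells, read here as a measure of free RNA, gave 0.361 CPM of *WNT5B* at E16 and 0.0865 in E19 HS. *WNT2* had 607, 676 and 1654 UMIs and a ratio of 1.92 (1.75–2.10). *WNT8A*, a ligand of the early posterior embryo, had 1, 1 and 20 UMIs, too few for the comparison.

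Of the receptors, *FZD4* had 556, 567 and 2111 UMIs, or 5.58, 6.39 and 18.6 CPM, and *FZD10* had 497, 563 and 1446 UMIs, or 4.99, 6.34 and 12.8 CPM. Their ratios of E16 HS to E19 HS were 2.92 (2.66–3.21) and 2.01 (1.82–2.22). Both stayed above 2 with the same class weights, at 2.49 and 2.72. With TMM factors, a scaling that sets the bulk of genes equal, *FZD10* was at 1.74 and *FZD4* at 2.52. *FZD2*, with 3810, 4171 and 5239 UMIs, had a ratio of 0.984, and *LRP5* and *LRP6* were at 1.30 and 1.35.

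*DKK3*, a divergent DKK family gene, was at 80, 117 and 42 UMIs, 3.55 times lower at E16 than in E19 HS. *SFRP1* and *SFRP2*, the most counted inhibitors, were at 42.8 and 18.9 CPM at E16 against 66.4 and 33.3 CPM in E19 HS, ratios of 0.644 and 0.567. *SFRP5* was at 3.46 (2.68–4.52), and at 1.34 without erythroid-like cells. Of the feedback genes, *SP5* had 29, 33 and 92 UMIs and a ratio of 2.19 (1.45–3.36), *LEF1* a ratio of 1.94 (1.73–2.16), and *AXIN2*, with 186, 215 and 248 UMIs, a ratio of 0.904.

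To see which cells carried these UMIs, cells of the libraries were clustered together without the 47 members, and clusters were named after marker lists, as resemblance to a cell type. Over the libraries together the largest named classes were somitic-like cells (2215, 2617 and 1923), neural tube-like cells (1416, 2209 and 751) and erythroid-like cells. Of the 4 clusters summed as somitic-like, the one led by *TNNT1* had 2 somitic markers among its 10 leading genes. Clusters 0, 4 and 5, led by *FST*, *H2AC7* and *EBF2*, had 0 there. They took the name from the mean level of the somitic list, with 3 of its markers detected. When the libraries were integrated before clustering, a cluster led by *EBF2* stayed unnamed. Tail bud-like cells, led by *CDX2*, *CDX4* and *FGF8*, numbered 35, 115 and 1147. Of 12 tail bud markers 6, 9 and 12 were detected, and over 40% of the 35 E19 HSTS cells were among the highest 8% of doublet scores of their library. Fibroblast mesenchyme-like cells numbered 146, 179 and 1612, of which 2, 2 and 1279 formed a cluster (cluster 12) led by *REG4*, *PMP22* and *COL1A1*. Cluster 24, led by the uroplakin gene *UPK3A*, had 2, 7 and 328 cells. Both are thus nearly absent at E19. The labels name whole embryos, and whether tissue outside the embryo proper was part of the E16 sample was not tested. A cluster of 367, 501 and 504 cells led by *CXCL14*, *DLX5* and *EPCAM* is called the EPCAM epithelium, since its leading genes mix gut and surface ectoderm. Cluster 3, led by *POSTN*, *HAND2* and *BMP4*, stayed unnamed. Since a class is itself made from gene counts, levels by class are a description.

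For each of the 27 members with at least 100 UMIs, the class with the highest CPM was compared over the 9 named classes that had at least 50 cells in every library. Clusters without a name were left out whatever their size. Among these, cluster 22, with few UMIs per cell, had *LRP6* at 75.4, 75.7 and 104 CPM, above every named class compared. Cluster 3 had *RSPO2* at 17.1 CPM in E19 HSTS, against 7.36 CPM in fibroblast mesenchyme-like cells. Over the named classes, the leading class was the same in all libraries for 11. Only for 4 of these (*WNT2*, *FZD2*, *FZD10* and *RSPO3*) did the interval of the leading class lie above that of the second class in every library, and for the other 7 the intervals overlapped in at least 1 library. With RPCA integration of the libraries before clustering, *WNT2*, *FZD2* and *SFRP2* were the 3 of the 11 that still had 1 leading class. *FZD2* and *WNT16* led in somitic-like cells. *FZD3*, *FZD7*, *FZD10*, *SFRP2* and *DKK3* led in neural tube-like cells, *WNT2*, *RSPO2* and *RSPO3* in fibroblast mesenchyme-like cells, and *FRZB* in endothelial-like cells. The other 16 changed class with library, and for 15 of them, *SFRP1* excepted, the intervals of the leading and second class overlapped in at least 1 library. *SFRP1* led in fibroblast mesenchyme-like cells in both E19 libraries and in somitic-like cells at E16. *FZD4*, *DKK2* and *WNT2B* shared the fibroblast mesenchyme-like class in 2 of the libraries, with endothelial-like cells at E16 for *FZD4* and *DKK2* and neural tube-like cells in E19 HSTS for *WNT2B*. For *DKK2* at E16 the endothelial-like lead rested on 1 UMI, 2.40 CPM (0.0609–13.4) against 2.21 (1.64–2.92) in fibroblast mesenchyme-like cells. *LRP5* led in endothelial-like cells of E19 HSTS and E16 HS and in hepatic endoderm-like cells of E19 HS, and *FZD6* in nephric-like cells at E19 and in the EPCAM epithelium at E16. *LEF1* led in the EPCAM epithelium at E19 and in neural crest-like cells at E16, and *WNT5B* in fibroblast mesenchyme-like cells at E19 and in the EPCAM epithelium at E16. At E16 *AXIN2*, *SP5*, *TCF7*, *LRP6*, *FZD1* and *WNT5A* all led in somitic-like cells, and their leading class at E19 differed between the embryos, except that *WNT5A* was led by somitic-like cells in E19 HS as well. *SFRP5* and *WNT11* had another leading class in each library. Tail bud-like cells, too few in E19 HSTS, were not among these classes. Early neuron-like, midline-like and cardiomyocyte-like cells, too few at E16, were not either. Tail bud-like cells had higher values at E16 than the leading class named here for *AXIN2*, *SP5*, *WNT5A*, *LEF1* and *WNT5B*, as given below. For *RSPO3* they were above fibroblast mesenchyme-like cells in E19 HSTS and E19 HS, at 229 and 215 against 99.8 and 102 CPM. At E16 they were below them, at 192 against 255 CPM. For *DKK3* in E19 HSTS and E19 HS, early neuron-like cells had 2.86 and 14.1 CPM and cardiomyocyte-like cells 8.37 and 1.20 CPM. Neural tube-like cells had 2.60 and 2.99 CPM.

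**Figure D3:**
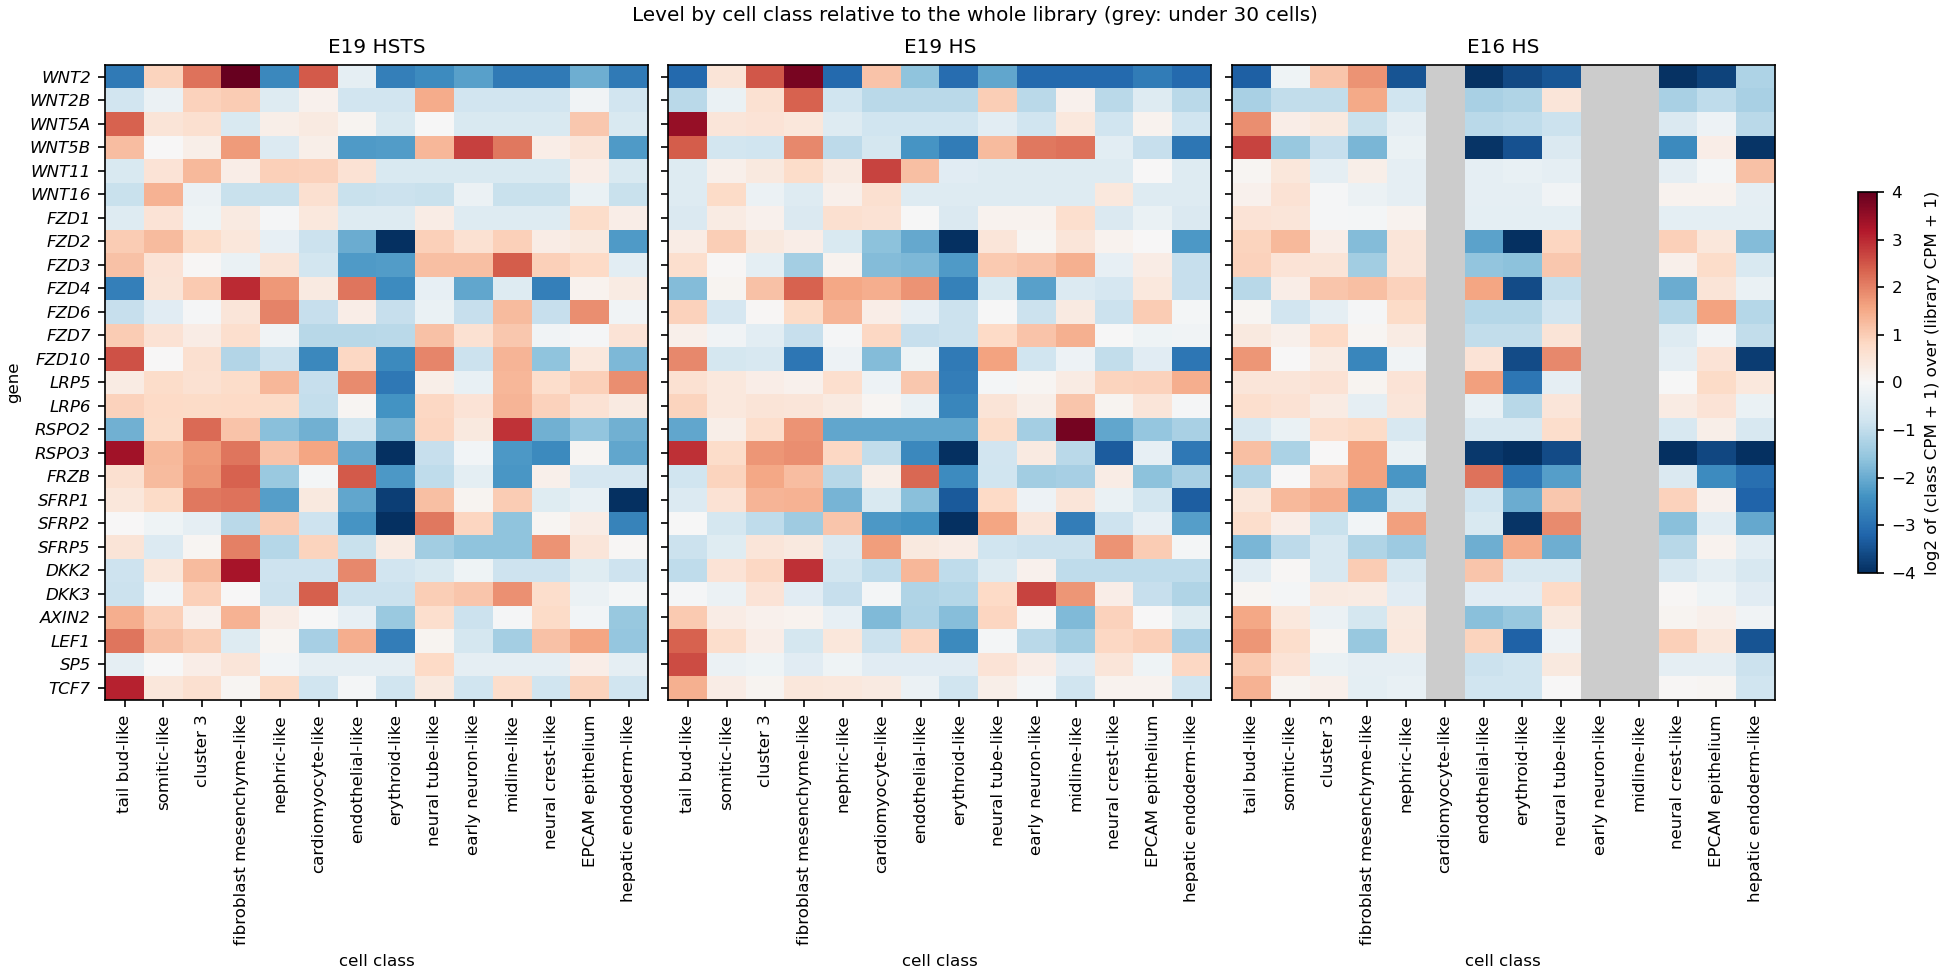
Level of 27 members (rows) in 14 cell classes (columns), 1 panel per library, as log2 of class CPM plus 1 over library CPM plus 1; grey marks classes with under 30 cells. *LEF1* is highest in tail bud-like cells and *SFRP2* in neural tube-like cells of every library, and *FZD10* is red in both of these classes.

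Tail bud-like cells held the highest *WNT5B* level at E16. It was 97.9 CPM (92.2–104), with a UMI in 539 of 1147 cells (47.0%), against 39.2 CPM (26.8–55.3) in E19 HS, with a UMI in 24 of 115 cells (20.9%). The ratio was 2.5 (1.76–3.67). In E19 HSTS only 3 *WNT5B* UMIs, in 3 of 35 cells, fell in this class, or 10.2 CPM (2.11–29.9). *WNT5A* went the other way between the days, at 6.57 CPM (5.16–8.25) at E16 and 18.4 CPM (10.3–30.3) in E19 HS, with 74 and 15 UMIs. The ratio was 0.358 (0.204–0.671). *WNT3A* and *WNT8A*, canonical ligands of the tail bud, were counted rarely, but 24 of 30 *WNT3A* UMIs and 19 of 20 *WNT8A* UMIs of E16 HS lay in tail bud-like cells. In E19 HS 4 of 14 *WNT3A* UMIs did, and most of the rest (10) were in neural tube-like cells. Between E16 HS and E19 HS, 3 of 13 members tested in tail bud-like cells were past 2-fold either way (23.1%), namely *WNT5B*, *WNT5A* and *FZD4*, where 13.5% of all genes were. *FZD4* rested on 1 UMI in E19 HS against 92 at E16.

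Elsewhere *WNT5B* was seen in early neuron-like cells, at 30.9 CPM (23.2–40.3) in E19 HSTS and 31.4 CPM (23.2–41.5) in E19 HS, the same within counting error. Neural tube-like cells had 11.1, 17.1 and 9.18 CPM in library order. Here the short-tailed embryo was lower, with a *WNT5B* ratio of 0.651 (0.526–0.801) to E19 HS. The EPCAM epithelium and nephric-like cells had more *WNT5B* at E16, at 17.0 and 11.6 CPM against 2.95 and 2.60 CPM in E19 HS.

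*WNT2*, a ligand known from the heart, lung and allantoic mesenchyme, was highest in fibroblast mesenchyme-like cells, at 136 (116–158), 120 (102–139) and 53.8 (50.8–57.0) CPM. The lower E16 value of *WNT2* went with the *REG4* cluster, at 41.3 CPM, while the second fibroblast cluster, led by *DCN* and *POSTN*, had 140, 121 and 123 CPM. Cluster 3 held 31.0, 47.0 and 32.8 CPM of *WNT2*.

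*WNT16* was found mainly in somitic-like cells, with 3.81 (2.96–4.82), 1.45 (0.962–2.09) and 0.924 CPM. The HSTS to HS ratio at E19 within somitic-like cells was 2.63 (1.67–4.24), from 69 and 28 UMIs. *WNT16* was higher in E19 HSTS in each of the 4 clusters of this class, at 3.58 against 0.777, 3.26 against 1.11, 3.23 against 0.828 and 6 against 4.68 CPM. *FZD7* was the other member past 2-fold in somitic-like cells, with 41 UMIs in E19 HSTS, 14 UMIs in E19 HS and a ratio of 3.12 (1.67–6.21). So 2 of 18 members tested there were past 2-fold either way (11.1%), where 3.10% of all genes were. In neural tube-like cells 0 of 17 were, where 3.07% of all genes were.

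Among the rarer ligands, *WNT1*, *WNT7A*, *WNT7B* and *WNT8B*, which pattern the dorsal and anterior neural tube, lay mainly in neural tube-like cells. These cells held 11 of 12, 20 of 24, 12 of 16 and 8 of 8 UMIs in E19 HSTS, and 5 of 6, 12 of 14, 16 of 18 and 5 of 5 in E19 HS. At E16 the 4 genes had 1 or 2 UMIs each. *WNT6*, a ligand of epithelia, lay mainly in the EPCAM epithelium (4, 11 and 17 UMIs) and in cluster 30, which was led by *TAC3*, *SPP1* and *GABRP* (4, 6 and 13 UMIs), of 9, 22 and 33 in all. *WNT3* had 10, 4 and 9 UMIs in the EPCAM epithelium and 9, 14 and 4 in neural tube-like cells, of 27, 21 and 14. At E16 14 of 15 *WNT4* UMIs lay in cluster 24. *WNT9A*, *WNT10A* and *WNT10B* had at most 2 UMIs in any library. In the RefSeq sheep annotation 4 pairs of ligand genes are neighbours. At E16 *WNT6* had 33 UMIs and its neighbour *WNT10A* 1, *WNT3A* had 30 and *WNT9A* 0, and *WNT3* had 14 and *WNT9B* 4. *WNT1* and *WNT10B* had 2 and 1, too few to set apart. These counts are listed only, since levels of different genes are not compared.

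*RSPO3* was high in tail bud-like cells of every library, at 229 (177–291), 215 (185–250) and 192 (184–201) CPM. The ratio of E16 HS to E19 HS there was 0.894 (0.766–1.05), so the library difference was not seen within this class. Fibroblast mesenchyme-like cells had 99.8, 102 and 255 CPM. Of the *RSPO3* UMIs of E16 HS, fibroblast mesenchyme-like cells held 5650 (59.8%), 5079 of them in the *REG4* cluster (53.8% of the library), and tail bud-like cells held 22.9%. In the E19 libraries somitic-like cells held the largest share, 45.5% in E19 HSTS and 36.6% in E19 HS. Within neural tube-like cells *RSPO3* was lower at E16, at 6.12 against 15.7 CPM, with a ratio of 0.391 (0.273–0.546). In cardiomyocyte-like cells it was 67.0 CPM in E19 HSTS, from 72 UMIs in 11 of 82 cells. In E19 HS it was 13.2 CPM, from 11 UMIs in 6 of 112 cells. The UMIs thus lay in few cells, and 19.4% of this cluster was among the highest 8% of doublet scores.

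**Figure D4:**
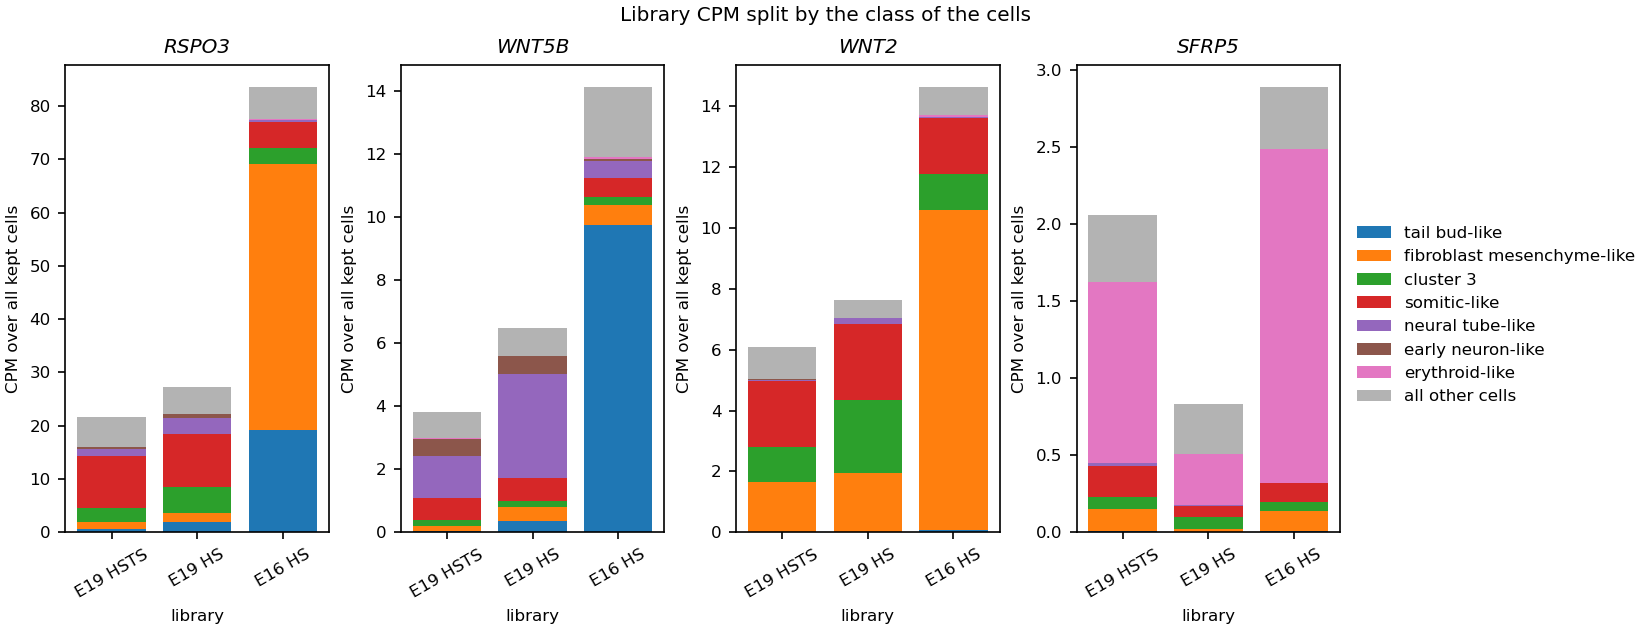
Library CPM of *RSPO3*, *WNT5B*, *WNT2* and *SFRP5* (vertical, from 0) as stacked bars for the 3 libraries, split by the cell class that held the UMIs. Fibroblast mesenchyme-like and tail bud-like cells make up most of the E16 bar of *RSPO3*, tail bud-like cells 69.1% of that of *WNT5B*, and erythroid-like cells 75.2% of that of *SFRP5*.

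Midline-like cells took their name from a midline marker list, with *SPON1* and *NTN1* among their leading genes. *RSPO2* was highest in them, at 26.9 CPM (15.1–44.4) in E19 HSTS and 58.5 CPM (42.3–78.8) in E19 HS. The ratio was 0.460 (0.237–0.844). It rests on 15 UMIs in 4 of 104 cells of E19 HSTS and 43 UMIs in 19 of 139 cells of E19 HS. The interval counts UMIs as independent and does not cover variation between cells. Cluster 3 had the opposite order, at 17.1 CPM against 5.94 CPM, with a *RSPO2* ratio of 2.89 (1.81–4.72). At E16 only 7 midline-like cells were found, but *RSPO2* was also lower within classes present in both. In neural tube-like cells it was 1.53 CPM against 6.1 in E19 HS, and in somitic-like cells 0.308 against 3.98, which is 3.99 (2.08–8.56) and 12.9 (5.31–41.0) times lower.

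*FZD2*, a broadly used receptor, reached 93.1, 93.9 and 114 CPM in somitic-like cells and under 1 CPM in erythroid-like cells of each library. *FZD10* was concentrated in tail bud-like cells, at 34.2, 26.9 and 45.9 CPM, and in neural tube-like cells, at 22.0 (19.4–24.9), 21.3 (19.1–23.6) and 51.5 (46.2–57.4) CPM. The higher E16 level of *FZD10* was seen within neural tube-like cells, with a ratio of 2.42 (2.08–2.82), and within somitic-like cells, with a ratio of 3.75 (2.84–5.01). *FZD4*, known from vessels, was highest in endothelial-like cells (28.3, 24.9 and 57.7 CPM) and fibroblast mesenchyme-like cells (50.7, 36.6 and 43.9 CPM). Its ratio of E16 HS to E19 HS was 3.26 (2.67–4.01) in somitic-like and 2.37 (1.64–3.42) in neural tube-like cells.

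In somitic-like cells 3 of 16 members tested between E16 HS and E19 HS were past 2-fold either way (18.8%), namely *RSPO2*, *FZD4* and *FZD10*, where 7.88% of all genes were. In neural tube-like cells 5 of 16 were (31.2%), with *RSPO3* and *DKK3* added to the same 3, where 6.44% of all genes were. Most E16 somitic-like cells (1332 of 1923) were in another cluster of the class than the largest E19 ones, and a neural tube-like cluster of 397 and 663 E19 cells had 21 at E16. The co-receptor *LRP6* was detected in every class, with 54.6, 53.8 and 62.1 CPM in tail bud-like cells. In erythroid-like cells it was 4.58 and 3.89 CPM in the E19 libraries and 17.3 CPM at E16, and these cells came from different clusters on the 2 days.

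Of the inhibitors, *SFRP1* was abundant in fibroblast mesenchyme-like cells at E19, at 275 and 174 CPM, and at 8.08 CPM there at E16. The *REG4* cluster had 3.89 CPM of *SFRP1* and the *DCN* and *POSTN* cluster 31.2 CPM at E16 against 283 and 176 CPM in the E19 libraries, so the level was lower in both. In somitic-like cells *SFRP1* stayed at 104, 100 and 107 CPM. *SFRP2* was highest in neural tube-like cells, at 105, 102 and 71.9 CPM, followed by nephric-like cells at 49.0, 73.5 and 61.4 CPM. *FRZB* reached 26.4, 28.6 and 36.1 CPM in endothelial-like cells. *DKK2* had 16.4, 14.5 and 2.21 CPM in fibroblast mesenchyme-like cells. At E16 22 of 38 *DKK1* UMIs lay in tail bud-like cells.

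The feedback genes and TCF/LEF factors were highest together in tail bud-like cells. Summed over *AXIN2*, *LEF1*, *TCF7* and *SP5*, this class had 51.2 (28.7–84.5), 47.7 (33.9–65.2) and 51.0 (46.9–55.3) CPM. The next class with at least 30 cells was at 25, 18.4 and 23.7 CPM. *LEF1* made up most of the sum, at 30.7 (14.1–58.4), 30.6 (19.8–45.2) and 36.4 (33.0–40.1) CPM, and *AXIN2* was at 6.83, 6.12 and 8.26 CPM. *SP5* had 0 UMIs in the 35 cells of E19 HSTS, which allows up to 12.6 CPM, and was at 7.34 CPM (2.69–16.0) in E19 HS and 2.75 CPM (1.87–3.91) at E16. These levels did not separate the libraries beyond counting error. Outside the tail bud, *LEF1* was higher in E19 HSTS than in E19 HS in somitic-like cells, at 15.4 against 9 CPM with a ratio of 1.71 (1.41–2.08), and in the EPCAM epithelium, at 20.7 against 10.9 CPM with a ratio of 1.90 (1.30–2.78).

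Within a class, cells carrying regional markers were then compared with the rest of their class in the same library. Part of these marker lists was narrowed after the data were seen, the groups are small, and the marker-carrying cells were usually deeper. Among tail bud-like cells, those with at least 2 of 10 presomitic markers (*TBX6*, *MSGN1*, *HES7* and others) numbered 13, 44 and 533. In E19 HSTS 46.2% of them and 40.9% of the other 22 cells were among the highest 8% of doublet scores. *RSPO3* was 434 against 82.0 CPM, 384 against 89.7 CPM and 282 against 99.7 CPM, ratios of 5.30 (2.90–10.3), 4.28 (3.0–6.2) and 2.83 (2.57–3.12). *LEF1* was likewise higher in the presomitic marker cells, at 54.4 against 12.8 CPM in E19 HS and 46.1 against 26.4 CPM at E16. *WNT5B* did not follow them, at 97.9 CPM on both sides at E16 and 40.1 against 38.5 CPM in E19 HS. Cells with tail bud markers and without presomitic ones had more *WNT5B* than the rest of the class at E16, 127 against 84.4 CPM with a ratio of 1.5 (1.33–1.69). At E16 *SFRP2* was lower in presomitic marker cells, at 18.7 against 44.2 CPM. In E19 HS it was 5.73 against 53.4 CPM, a direction that turned when 1 marker was enough (ratio 1.70).

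Neural tube-like cells with at least 2 forebrain or optic markers (24, 54 and 18 cells) had 607, 395 and 240 CPM of *SFRP2* against 92.6, 91.8 and 67.3 CPM in the rest. The ratios were 6.56 (5.57–7.68), 4.31 (3.73–4.95) and 3.56 (2.53–4.90). *FZD10* was scarce in the same cells, with 2 UMIs or 3.48 CPM against 21.9 CPM in E19 HS, and 0 UMIs, which allows up to 21.0 CPM, against 53.0 CPM at E16. Cells with a roof plate marker (17, 28 and 12 cells), the dorsal signalling centre of the neural tube, had more *RSPO3* than the rest, at 43.5 against 10.6, 108 against 14.3 and 44.5 against 5.31 CPM. Cells with a midbrain or hindbrain marker (172, 223 and 66 cells) had more *RSPO2* at E19, with ratios of 3.99 (2.40–6.56) and 3.03 (1.92–4.67), and 1 UMI at E16.

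**Figure D5:**
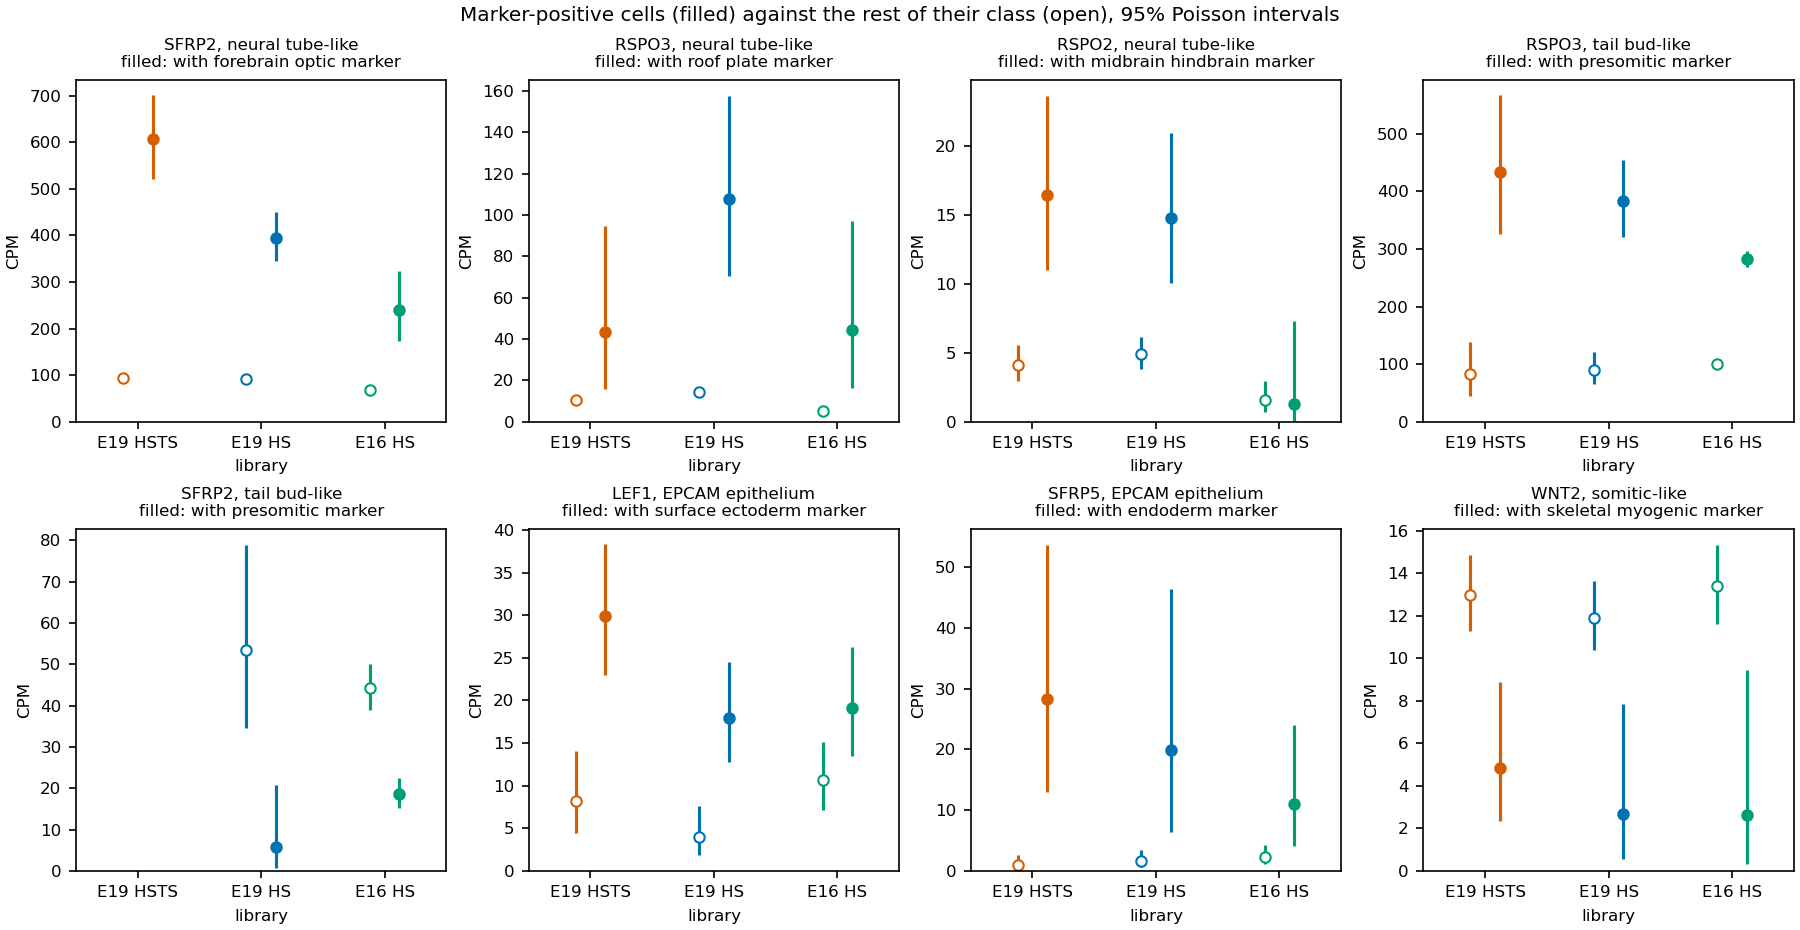
CPM (vertical, linear axis from 0) of a member in cells that carry the named markers (filled) and in the rest of the same class (open) for each library, with exact 95% intervals. *SFRP2* in forebrain or optic marker cells and *RSPO3* in presomitic marker cells lie above the rest in all 3 libraries, and *WNT2* in muscle marker cells lies below it.

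In the EPCAM epithelium, cells with surface ectoderm markers and no endoderm marker (186, 208 and 175 cells) had *LEF1* at 30 against 8.25, 18.0 against 4.02 and 19.1 against 10.6 CPM in the rest. All 10 *WNT3* UMIs of this class in E19 HSTS lay in them. *SFRP5* had 0, 1 and 0 UMIs in the surface ectoderm marker cells. The cells with endoderm markers instead (30, 31 and 54 cells) held it at 28.3 against 0.893, 19.9 against 1.68 and 11 against 2.34 CPM, from 9, 5 and 6 UMIs. In E19 HS *SFRP5* had 0 UMIs when 2 endoderm markers were asked for, in 5 cells. Somitic-like cells with at least 2 skeletal muscle markers (209, 119 and 59 cells) had less *SFRP1* than the rest, at 46.0 against 111, 19.7 against 105 and 51.1 against 110 CPM. *WNT2* was lower in them too, at 4.84 against 13, 2.68 against 11.9 and 2.62 against 13.4 CPM. With 1 muscle marker the *SFRP1* ratio in E19 HSTS was 1.00.

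Beyond the members, 51 other genes of the pathway were in the tables (secretion, receptor turnover, destruction complex, nuclear factors and planar polarity), and 44 had enough UMIs in each comparison. In E19 HSTS against E19 HS, 2 of 44 were at least 2-fold higher (4.55%) and 0 lower, where 1.53% and 2.28% of all genes were. *LGR5*, one of the R-spondin receptors, was at 2.88 against 1.07 CPM with a ratio of 2.69 (2.13–3.43). *LGR4*, another of these receptors, had 2196 and 2096 UMIs and a ratio of 0.934 (0.879–0.992). *AXIN1*, a scaffold of the destruction complex, had 154, 32 and 214 UMIs, or 1.55, 0.361 and 1.89 CPM. Its ratio was 4.29 (2.92–6.49), and the low E19 HS value is the denominator in both comparisons. In E16 HS against E19 HS, 5 of 44 were at least 2-fold higher (*GPC4*, *CER1*, *AXIN1*, *VANGL1* and *PRICKLE1*, 11.4%), where 6.96% of all genes were. At least 2-fold lower were 4 (*KREMEN1*, *TPBG*, *APCDD1* and *VANGL2*, 9.09%), where 6.38% of all genes were. The planar polarity pair *VANGL1* and *VANGL2* were at ratios of 2.36 and 0.5, and *KREMEN1*, a receptor for DKK proteins, was at 0.320.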

How the data were processed

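The authors aligned the reads to the sheep genome Ovis_aries_genome_v1.0 and made count tables in Cell Ranger 6.1.2. The raw UMI counts that the authors deposited were used, whole numbers for 26478 genes in barcodes called as cells. All columns were used. A cell was kept if it had 200 to 6000 genes and 1000 to 30000 UMIs, with a mitochondrial share (11 genes) of at most 10%. This left 9618 to 11329 cells per library. No doublets were removed.

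The member genes, gene lists and comparisons were chosen with earlier results of these data known. Counts were summed per library and per class and given as CPM. Poisson, conditional binomial and binomial intervals were exact. A member counted as past 2-fold where its ratio was at least 2 or at most the inverse and its UMIs over the pair were at least 50. Every member past this rule is named, with *WNT5A*, *WNT5B* and the leading class of each member with at least 100 UMIs. Other genes and values were singled out after they were seen.

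Classes were made in R 4.3.3 with Seurat 5.3.0 (2000 variable genes without the members, mitochondrial share regressed out, 25 principal components, resolution 1.0) and named by 25 marker lists, at least 3 markers being detected in at least 10% of the cells. Other steps used Python 3.11.15, numpy 2.4.6, scipy 1.17.1, pandas 2.3.3, scanpy 1.11.5 (Scrublet) and edgeR 4.0.16 (TMM factors only). The interval code was tested on simulated data. Alternatives changed the filter, scaling, class weights, doublets, thresholds, resolution, integration, depth (3000 UMIs per cell) and detection. The marker-positive cells and their alternatives were added after the data were seen. All 47 symbols were found in the RefSeq sheep annotation, used only for neighbouring genes. The E16 HSTS cells of the study were not analysed here.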

Additional observations from a re-analysis of the deposited data

Results flagged for a closer look

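Some members moved in opposite directions between E16 HS and E19 HS in different cell classes, with intervals on either side of 1. The difference between the classes was not tested. *FZD2* had a ratio of E16 HS to E19 HS of 2.14 in nephric-like and 0.234 in fibroblast mesenchyme-like cells. *RSPO3* had 2.49 in fibroblast mesenchyme-like cells, 0.270 in the EPCAM epithelium and 0.391 in neural tube-like cells. *WNT5B* had 5.77 in the EPCAM epithelium, 4.46 in nephric-like and 2.5 in tail bud-like cells, and 0.118 in fibroblast mesenchyme-like cells. Of the fibroblast mesenchyme-like cells at E16, 1279 of 1612 were in a cluster with 2 cells in each E19 library.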

How the results depend on the processing

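The count of members higher in E19 HSTS (2) stayed at 2 or 3 under every alternative run, but *FZD5* lost its call without erythroid-like cells and without the highest doublet scores, where *WNT16* took its place. That of members lower in E19 HSTS (*DKK1*) was 0 with the stricter filter, with TMM scaling, without erythroid-like cells, without the highest doublet scores and with the same class weights, and 2, 3 and 4 with a minimum of 20 UMIs, no minimum and a 1.5-fold threshold. Of the 6 members higher at E16, TMM scaling kept 3 (*FZD4*, *RSPO3* and *SFRP5*), the same class weights 4 (not *WNT5B* or *RSPO3*), the count without erythroid-like cells 4 (not *FZD10* or *SFRP5*) and the stricter filter 5 (not *FZD10*). Without clusters 12 and 24, an alternative chosen after the data were seen, 5 were kept (not *RSPO3*) and *LEF1* was added. The 2 lower at E16 became 4 with TMM scaling, 4 with the same class weights, 4 with a minimum of 20 UMIs, 11 with no minimum and 8 at 1.5-fold. The direction turned for *RSPO3* at E16 with the same class weights (0.936), for *SFRP2* in presomitic marker cells of E19 HS with 1 marker (1.70), for *SFRP5* in endoderm marker cells of E19 HS with 2 markers (0) and for *SFRP1* in muscle marker cells of E19 HSTS with 1 marker (1.00). With RPCA integration 8 members had 1 leading class over all libraries, 3 of them among the 11 (*WNT2*, *FZD2* and *SFRP2*), and at resolution 0.25 it was 11, sharing 8. Within their interval stayed 80 of 98 library ratios recomputed, 54 of 65 class levels, 37 of 52 marker cell ratios and 0 of 24 shares of cells, and 30 of 44 counts stayed within 1.5 times. The share of cells with *RSPO3*, thinned to equal depth, was 6.37% and 7.92% in the E19 libraries (HSTS and HS) and 16.0% at E16. The causes of these changes were not tested beyond what each alternative leaves out. No paired analysis was possible because each group is 1 library.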
